A study of Mus musculus with 12 samples.

Results

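The comparison described here is the effect of a viral vector carrying mVEGF-C, set against the same vector carrying eGFP and averaged over 2 antibody treatments, on gene expression in the brain of aged mice. The genes of interest were those that moved the same way under both antibodies. They had to pass the averaged contrast at an adjusted p under 0.05 and to show the same sign with an unadjusted p under 0.05 within each antibody. Of 14881 genes tested, 58 passed the averaged contrast and 44 of these met the full rule, 27 higher and 17 lower with mVEGF-C.

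RNA was sequenced from 12 male mice labelled as the strain APPswe, which carries a transgene for a mutant amyloid precursor protein, aged 22 to 26 months. Every mouse had been given the adeno-associated virus AAV1 with a CMV promoter, which is active in many cell types, in 5 µL into the fluid-filled cisterna magna below the cerebellum, and weekly intraperitoneal antibody at 40 mg/kg. The groups were AAV1-CMV-mVEGF-C with mIgG (mice 7 to 9), AAV1-CMV-mVEGF-C with mAdu (mice 10 to 12), AAV1-CMV-eGFP with mIgG (mice 1 to 3) and AAV1-CMV-eGFP with mAdu (mice 4 to 6), with 6 libraries a vector and, per the labels, 1 mouse a library. mAdu is mAducanumab, an antibody against aggregated amyloid beta, and mIgG is the immunoglobulin given in its place. No group labelled as lacking the APPswe transgene, without a vector or without an antibody was among the samples analysed. The question, per the title of the series, concerns how the lymphatic vessels of the meninges bear on immunotherapy against amyloid beta.

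VEGF-C is a secreted growth factor that acts mainly through the receptor VEGFR-3, encoded by Flt4, on lymphatic endothelium, and in the adult head lymphatic vessels lie in the meninges rather than in brain tissue. Immediate early genes, which feature among the results, are transcribed within minutes of neuronal firing without new protein synthesis, through factors already in the cell such as CREB and serum response factor. Some of them encode transcription factors (the AP-1 proteins Fos, Fosb and Junb, the zinc finger protein Egr2, the nuclear receptor Nr4a1), and others encode proteins of the synapse (Arc and Homer1). The choroid plexus, the epithelium that makes cerebrospinal fluid, makes transthyretin (Ttr) in large amounts.

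The description of the series names the whole hippocampus of the right hemisphere as the tissue, whereas the source label of the samples names the meninges. Hippocampal markers were present in every library: the median level of 8 CA1 markers lay between 86.1 and 96.9 CPM (reads relative to the scaled library total), that of 12 CA3 markers between 42.5 and 50.8 CPM and that of 13 dentate granule cell markers between 41 and 57.9 CPM. Meningeal fibroblast markers had medians of 5.13 to 9.92 CPM and choroid plexus markers of 1.27 to 2.33 CPM. Among 9 lymphatic endothelial markers, 6 were measured.

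Several libraries stood apart. In mice 3, 6, 9 and 12, 1 in each group, the library held the middle value of its group in 71.8 to 80.5% of the genes that varied beyond counting noise in that group, against 8.32 to 16.3% for the other 8 libraries. A library that lies between the others of its group narrows the spread that the test uses. Without those 4 libraries all 58 genes kept their sign and none passed the adjusted threshold of edgeR's test, where 842 genes had an unadjusted p under 0.05. That fit held 8 libraries in place of 12, and the cause of the lost calls was not tested. App, the gene of the amyloid precursor protein, had 1342 CPM in eGFP+mAdu mouse 5, 3716 CPM in eGFP+mAdu mouse 6, and between 4721 and 5507 CPM in the other 10 mice. The labels give mice 5 and 6 the same strain as the other mice, and the cause of their lower App levels, genotype included, was not tested. The identifier ENSMUSG00000045999, which has no gene symbol in the annotation used, took 91440, 91830 and 24410 CPM in the 3 eGFP+mIgG mice and 108 to 1037 CPM in the other 9. Every n, SE and p here treats the 12 libraries as separate mice, and whether the 4 intermediate libraries are independent of the others of their group was not tested.

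Vegfc itself was not higher in mVEGF-C mice. It had 3.67, 2.27 and 2.21 CPM in the mVEGF-C+mIgG mice and 2.65, 3.44 and 2.86 CPM in the mVEGF-C+mAdu mice, against 3.45, 3.21 and 3.58 CPM in the eGFP+mIgG mice and 3.50, 3.13 and 3.25 CPM in the eGFP+mAdu mice. The ranges overlapped, and the log2 difference of -0.24 (SE 0.12) did not pass (edgeR adjusted p = 0.349). With limma-voom and sample quality weights Vegfc passed as lower in mVEGF-C mice (log2 difference -0.37, SE 0.094, adjusted p = 0.0204). Whether transcripts of the vector would be counted under Vegfc is not given in the sources used here. Flt4 was low, at 1.29 ± 0.103 CPM in the 6 mVEGF-C mice and 1.38 ± 0.215 CPM in the 6 eGFP mice (mean ± SD), with a log2 difference of -0.087 (SE 0.14, edgeR adjusted p = 0.792). None of the 14 ligands, receptors and coreceptors of the VEGF family passed, and at an unadjusted p under 0.05 there were 3 with a positive and 4 with a negative difference, where 8.47% of all genes were higher and 7.54% lower.

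Of the 37 gene lists, the one with most genes that passed was that of immediate early genes of active neurons. The lists and their members were chosen with earlier results of these data known, so these counts are no independent test. Of 28 such genes on a list, all measured, 8 passed with higher levels in mVEGF-C mice and 0 with lower levels, while 37 of all genes (0.249%) passed as higher and 21 (0.141%) as lower. The full rule of the same direction under both antibodies was met by 6 of the 28 (Fos, Egr2, Arc, Homer1, Fosb and Nr4a1), beside 27 of all genes (0.181%) that met it as higher and 17 (0.114%) as lower. At an unadjusted p under 0.05, 20 of the 28 were higher and none was lower, where 8.47% of all genes were higher and 7.54% lower. The median log2 difference of the 28 genes was 0.284, at 0.295 with mIgG and 0.226 with mAdu, while the median over all genes was -0.00201. Their mean centred log2 level was 0.151 to 0.248 in mVEGF-C+mIgG mice and -0.007 to 0.333 in mVEGF-C+mAdu mice. It was -0.341 to -0.005 in eGFP+mIgG mice and -0.175 to -0.127 in eGFP+mAdu mice. The vectors separated within each antibody, but mouse 10 (mVEGF-C+mAdu) lay just below mouse 2 (eGFP+mIgG).

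The promoters of these genes were read to show what they share in sequence, since immediate early genes are known targets of CREB, a factor that binds TGACG within the cAMP response element. Windows of 300 bases, from 250 before to 50 after the transcription start, came from RefSeq on GRCm38.p6, and 7 of the 8 genes had one. Homer1 has 2 windows and Egr2 has 5, and the one nearest the annotated start of the gene is given. For Homer1 and Nr4a1 the window given lies downstream of the annotated gene start (chr13:93299635 and chr15:101254269), at another transcription start. The letters TGACG on either strand were found in 6 of the 7 windows, against 20.8% of 32851 mouse promoter windows of the same length. The 7 windows had a GC content of 58.7 to 72.3%. The windows they are set against were not matched for GC content, so its part in this difference was not tested. The full palindrome TGACGTCA, which contains TGACG, was in 0 of the 7 and in 1.79% of all windows. The CArG box, the motif of serum response factor, was searched by its usual form on both strands and was in 0 of the 7 and in 1.63% of all windows. Bases more than 250 before the start were not searched, so the count does not show that these genes lack the motif. A match of letters is a description of the sequence and shows no binding. The sequences shown run 5′ to 3′ on the strand of the gene, with TGACG or its complement CGTCA in capitals.
Fos, chr12:85473640-85473939, plus strand: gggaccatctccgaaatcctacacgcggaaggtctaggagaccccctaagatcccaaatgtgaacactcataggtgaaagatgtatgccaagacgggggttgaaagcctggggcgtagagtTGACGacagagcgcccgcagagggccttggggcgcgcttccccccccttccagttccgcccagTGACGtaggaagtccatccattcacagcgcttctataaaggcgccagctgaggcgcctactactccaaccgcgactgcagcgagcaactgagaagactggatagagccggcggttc
Homer1, chr13:93303507-93303806, plus strand: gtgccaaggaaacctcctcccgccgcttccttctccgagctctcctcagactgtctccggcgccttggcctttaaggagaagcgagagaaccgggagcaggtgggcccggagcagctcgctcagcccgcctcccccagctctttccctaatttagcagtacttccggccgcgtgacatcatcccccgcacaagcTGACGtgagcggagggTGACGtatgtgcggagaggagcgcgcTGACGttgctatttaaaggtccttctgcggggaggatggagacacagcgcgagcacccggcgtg
Fosb, chr7:19309996-19310295, minus strand: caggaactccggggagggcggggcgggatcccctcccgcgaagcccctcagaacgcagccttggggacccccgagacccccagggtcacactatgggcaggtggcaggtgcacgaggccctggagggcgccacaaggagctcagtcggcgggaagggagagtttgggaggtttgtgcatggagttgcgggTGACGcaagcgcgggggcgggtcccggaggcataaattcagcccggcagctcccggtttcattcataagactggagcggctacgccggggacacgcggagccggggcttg
Nr4a1, chr15:101266596-101266895, plus strand: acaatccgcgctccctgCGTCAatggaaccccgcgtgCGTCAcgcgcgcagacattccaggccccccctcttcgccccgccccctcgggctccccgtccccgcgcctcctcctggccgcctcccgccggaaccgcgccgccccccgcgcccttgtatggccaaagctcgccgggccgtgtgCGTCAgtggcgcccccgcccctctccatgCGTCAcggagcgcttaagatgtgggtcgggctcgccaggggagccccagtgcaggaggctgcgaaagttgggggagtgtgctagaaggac
Egr2, chr10:67535249-67535548, plus strand: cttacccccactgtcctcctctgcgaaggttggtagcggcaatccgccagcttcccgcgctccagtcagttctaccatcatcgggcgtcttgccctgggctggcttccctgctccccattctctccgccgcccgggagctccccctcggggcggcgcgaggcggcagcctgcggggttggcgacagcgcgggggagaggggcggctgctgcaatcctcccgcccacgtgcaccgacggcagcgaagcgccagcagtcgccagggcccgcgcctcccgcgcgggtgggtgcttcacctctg
The window shown for Fos holds the letters at 2 places, that of Homer1 at 3, of Fosb at 1 and of Nr4a1 at 4. The window shown for Egr2, 1 of its 5, holds none, and Egr2 had the largest difference of the 8 genes.

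Fos, the AP-1 subunit most used as a marker of recent neuronal activity, had 26.8, 30.8 and 31.2 CPM in the mVEGF-C+mIgG mice and 23.2, 36.4 and 27.8 CPM in the mVEGF-C+mAdu mice. In eGFP mice it had 11.4, 18.7 and 14.3 CPM with mIgG and 18.9, 16.3 and 15.8 CPM with mAdu. All 6 mVEGF-C mice thus lay above all 6 eGFP mice, with the highest level in mouse 11 and the lowest in mouse 1. The log2 difference averaged over the antibodies was 0.89 (SE 0.11, edgeR adjusted p = 0.00319), made of 1.02 (SE 0.16) with mIgG and 0.77 (SE 0.16) with mAdu.

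Egr2, a zinc finger transcription factor with a role in myelinating Schwann cells and in activated neurons, was a low-level transcript. Its levels were 5.46, 5.72 and 4.99 CPM in the mVEGF-C+mIgG mice and 3.73, 9.90 and 6.76 CPM in the mVEGF-C+mAdu mice, against 1.63, 3.12 and 2.24 CPM in the eGFP+mIgG mice and 2.39, 2.87 and 2.23 CPM in the eGFP+mAdu mice. The vectors did not overlap, and mouse 11 again stood highest. The log2 difference was 1.34 (SE 0.20, edgeR adjusted p = 0.0116), with 1.24 under mIgG and 1.44 under mAdu.

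Arc, which encodes a protein of excitatory synapses that promotes removal of AMPA receptors, had 192, 224 and 199 CPM in the mVEGF-C+mIgG mice and 166, 234 and 199 CPM in the mVEGF-C+mAdu mice. Its levels were 106, 172 and 132 CPM in the eGFP+mIgG mice and 127, 132 and 126 CPM in the eGFP+mAdu mice. One eGFP mouse (mouse 2) lay above the lowest mVEGF-C mouse (mouse 10), and the other eGFP mice lay below all mVEGF-C mice. The log2 difference was 0.61 (SE 0.095, edgeR adjusted p = 0.0147), almost equal under mIgG (0.59) and mAdu (0.64). Homer1, the scaffold that ties metabotropic glutamate receptors to the postsynaptic density, had 195, 209 and 214 CPM in mVEGF-C+mIgG mice and 207, 244 and 217 CPM in mVEGF-C+mAdu mice, against 167, 183 and 175 CPM in eGFP+mIgG mice and 178, 189 and 194 CPM in eGFP+mAdu mice. The lowest mVEGF-C mouse lay just above the highest eGFP mouse, and the log2 difference was 0.24 (SE 0.041, edgeR adjusted p = 0.0192). The counts do not separate the long Homer1 transcript from the short one that neuronal activity induces.

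Fosb, Nr4a1, Junb and Npas4 lay outside the rule by which genes were named, and were picked once their values were known to complete the 8 genes of the list that passed. Fosb had 5.73 ± 1.06 CPM in mVEGF-C mice and 3.65 ± 0.499 CPM in eGFP mice (mean ± SD, n = 6 each), with a log2 difference of 0.66 (SE 0.12, edgeR adjusted p = 0.0307) and no overlap of the vectors. Nr4a1, an orphan nuclear receptor, had 41.3 ± 6.24 CPM in mVEGF-C mice and 28.6 ± 4.94 CPM in eGFP mice, with a log2 difference of 0.54 (SE 0.11, edgeR adjusted p = 0.0387) and no overlap.

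Junb and Npas4 passed the averaged contrast without meeting the rule under both antibodies. Junb had 91.3, 84.5 and 86.5 CPM in mVEGF-C+mIgG mice and 61.0, 83.1 and 70.8 CPM in mVEGF-C+mAdu mice, against 56.1, 72.2 and 57.4 CPM in eGFP+mIgG mice and 65.6, 63.6 and 57.6 CPM in eGFP+mAdu mice, so that the vectors overlapped under mAdu. Npas4, a transcription factor induced by calcium influx in neurons, had 14.6, 12.1 and 12.8 CPM in mVEGF-C+mIgG mice and 5.65, 6.75 and 6.24 CPM in mVEGF-C+mAdu mice. In eGFP mice Npas4 had 8.46, 5.76 and 7.02 CPM with mIgG and 6.44, 5.45 and 5.07 CPM with mAdu. Its log2 difference was 0.88 (SE 0.13) with mIgG and 0.13 (SE 0.14) with mAdu, and the interaction of vector and antibody had an unadjusted p of 0.00113 for Npas4, with an edgeR adjusted p of 0.408 over all genes.

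**Figure D1:**
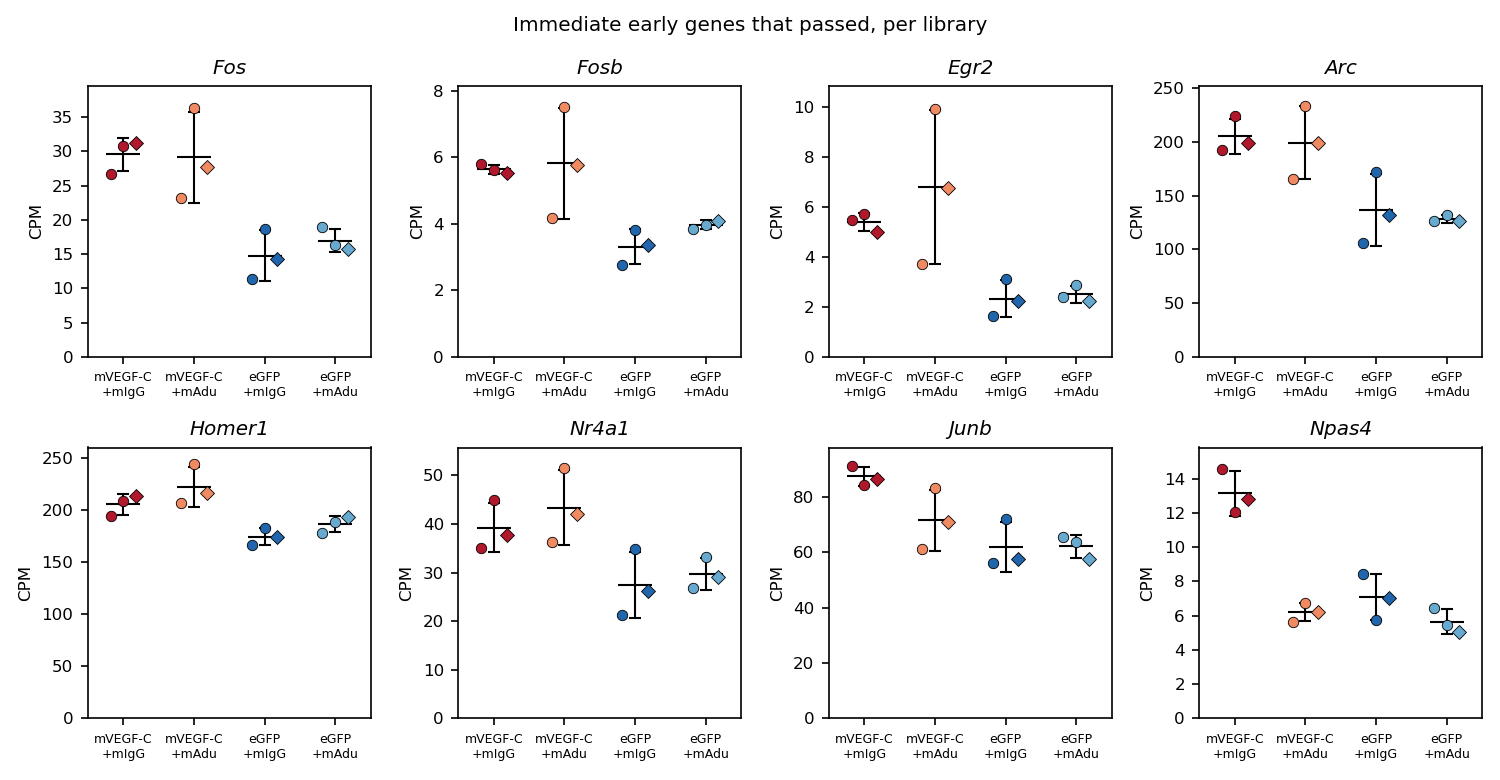
Levels in CPM of the 8 immediate early genes that passed, for each library (points) with the mean and SD of each group of 3 mice (bars), and diamonds for the libraries of mice 3, 6, 9 and 12, which lay between the others of their group for most genes that varied. In Fos, Fosb, Egr2, Homer1 and Nr4a1 every mVEGF-C mouse is above every eGFP mouse, whereas Npas4 is at 12.1 to 14.6 CPM in the 3 mVEGF-C+mIgG mice and at 8.46 CPM or below in the other 9.

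Of the 20 list members that did not pass, 18 had a positive difference and 2 a negative one. Dusp1, a phosphatase that inactivates mitogen-activated protein kinases, came nearest, with a log2 difference of 0.57 (SE 0.12, edgeR adjusted p = 0.0563), and Egr1 had 0.59 (SE 0.17, edgeR adjusted p = 0.118). The negative differences were those of Jun (-0.061, SE 0.063) and Egr3 (-0.036, SE 0.053), and the interval of each spans 0. Without mice 5 and 6, 4 of the 28 passed as higher, beside 45 of all genes, and the median was 0.291. Without mice 3, 6, 9 and 12 none passed and the median was 0.293. There 15 were higher at an unadjusted p under 0.05, against 2.66% of all genes. In that fit Fos had a log2 difference of 0.86 (SE 0.17) with an unadjusted p of 0.000435 and an edgeR adjusted p of 0.816.

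The other 21 genes that rose under both antibodies had log2 differences of 0.135 to 0.32 with a median of 0.201. Over all 44 genes the absolute difference ran from 0.135 to 1.39 with a median of 0.229, and 3 genes lay above 1. Rngtt, the enzyme that puts the cap on messenger RNA, had the smallest p of the 21. Its levels were 40.4, 41.3 and 41.5 CPM in the mVEGF-C+mIgG mice and 44.4, 45.1 and 45.1 CPM in the mVEGF-C+mAdu mice, against 34.4, 35.5 and 36.1 CPM in the eGFP+mIgG mice and 37.6, 37.7 and 39.1 CPM in the eGFP+mAdu mice. No mVEGF-C mouse overlapped an eGFP mouse, and the log2 difference of 0.23 (SE 0.03, edgeR adjusted p = 0.00501) was 0.22 with mIgG and 0.23 with mAdu.

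Arrdc3, an arrestin-like protein that controls the trafficking of surface receptors, had 97.3 ± 3.44 CPM in mVEGF-C mice and 84.3 ± 5.13 CPM in eGFP mice (mean ± SD, n = 6 each), a log2 difference of 0.21 (SE 0.031, edgeR adjusted p = 0.0116). Ppp1r3c, which targets protein phosphatase 1 to glycogen, had 73.0, 78.0 and 78.8 CPM in mVEGF-C+mIgG mice and 91.5, 93.7 and 95.0 CPM in mVEGF-C+mAdu mice, against 60.9, 71.9 and 66.8 CPM in eGFP+mIgG mice and 77.0, 81.5 and 76.7 CPM in eGFP+mAdu mice. Within each antibody its vectors did not overlap, but the mVEGF-C+mIgG mice overlapped the eGFP+mAdu mice. Washc4, a subunit of the WASH complex on endosomes, showed the same pattern, at 75.7 ± 1.89 against 67.7 ± 2.31 CPM with mIgG and at 83.6 ± 1.10 against 73.2 ± 2.49 CPM with mAdu, mVEGF-C against eGFP in each pair.

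Rises under both antibodies were also seen for Fam208a, part of the HUSH complex that silences transposons, for Ldah, a hydrolase of lipid droplets, and for Coq10b, a coenzyme Q binding protein of mitochondria. Their log2 differences were 0.15 (SE 0.026) for Fam208a, 0.19 (SE 0.032) for Ldah and 0.32 (SE 0.057) for Coq10b. Fam208a and Ldah separated the vectors in all 12 mice. Srsf10, a splicing regulator, and Arl5b, a small GTPase of the Golgi, passed the averaged contrast but reached an unadjusted p under 0.05 with mAdu alone. The log2 difference of Srsf10 was 0.32 (SE 0.048) with mAdu and 0.084 (SE 0.049) with mIgG. That of Arl5b was 0.39 (SE 0.056) with mAdu and 0.12 (SE 0.057) with mIgG.

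Myelin genes were represented by Mobp, a structural protein of central myelin, and Bcas1, a marker of oligodendrocytes that are forming myelin. Mobp had 611, 658 and 651 CPM in mVEGF-C+mIgG mice and 509, 509 and 498 CPM in mVEGF-C+mAdu mice, against 456, 481 and 474 CPM in eGFP+mIgG mice and 405, 512 and 459.7 CPM in eGFP+mAdu mice. With mIgG the vectors were far apart, and with mAdu mouse 5 (eGFP) exceeded all 3 mVEGF-C mice. The log2 difference of Mobp was 0.29 (SE 0.043, edgeR adjusted p = 0.0116), at 0.44 with mIgG and 0.14 with mAdu. Bcas1 had a log2 difference of 0.28 (SE 0.044, edgeR adjusted p = 0.0165) and missed the rule because its difference of 0.13 (SE 0.062) with mAdu did not reach an unadjusted p under 0.05. Of 20 oligodendrocyte and myelin genes these 2 passed, 18 had a positive difference, and the median was 0.0742. With mIgG all 20 were positive (median 0.122), and with mAdu 12 were (median 0.045). The mean centred log2 level of the 20 overlapped between vectors under both antibodies. It was -0.047, 0.284 and 0.132 in mice 7, 8 and 9 (mVEGF-C+mIgG), against -0.121 to 0.082 in eGFP+mIgG mice. It was -0.04 to -0.023 in mVEGF-C+mAdu mice, against -0.202 to 0.09 in eGFP+mAdu mice. Without mice 5 and 6 the median was 0.161, and 11 of the 20 were higher at an unadjusted p under 0.05 against 5 with all mice. By that measure 8.74% of all genes were higher without mice 5 and 6, and 8.47% with all mice. Mbp, which encodes myelin basic protein, did not pass, at 0.15 (SE 0.058). In bulk tissue fewer or more cells of a type and less or more RNA per cell cannot be told apart.

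Chaperones gave 1 gene that passed. Hspa5, the main chaperone of the endoplasmic reticulum (BiP), had 272, 263 and 271 CPM in mVEGF-C+mIgG mice and 292, 314 and 310.2 CPM in mVEGF-C+mAdu mice, against 250.2, 239 and 249 CPM in eGFP+mIgG mice and 278, 268 and 275 CPM in eGFP+mAdu mice. Its vectors separated within each antibody, with a log2 difference of 0.14 (SE 0.026, edgeR adjusted p = 0.0322). Of 19 endoplasmic reticulum chaperone and unfolded protein response genes it alone passed, 15 had a positive difference and the median was 0.0615. Among 16 cytosolic heat shock chaperones none passed in edgeR's test, 14 had a positive difference and the median was 0.0701. Of the 16, 6 were higher at an unadjusted p under 0.05, against 8.47% of all genes. Cyp51, which removes a methyl group from lanosterol in cholesterol synthesis, was the 1 of 21 enzymes of that pathway to pass, with a log2 difference of 0.15 (SE 0.029, edgeR adjusted p = 0.0359), while the median of the 21 was 0.0248.

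Among the 17 genes that fell under both antibodies, Ttr, the carrier of thyroxine and retinol in cerebrospinal fluid, changed most. It had 19.2, 29.1 and 27.4 CPM in the mVEGF-C+mIgG mice and 18.8, 14.3 and 16.8 CPM in the mVEGF-C+mAdu mice. In eGFP mice it had 30.4, 74.2 and 50.1 CPM with mIgG and 63.1, 46.1 and 59.6 CPM with mAdu. The highest mVEGF-C mouse (mouse 8) lay just below the lowest eGFP mouse (mouse 1). The log2 difference was -1.39 (SE 0.17, edgeR adjusted p = 0.00319), at -1.02 (SE 0.23) with mIgG and -1.76 (SE 0.24) with mAdu.

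Ttr is a choroid plexus gene, and none of the other 10 markers measured on the choroid plexus list passed. The list is a choice of markers and need not hold every gene of this epithelium. 1500015O10Rik, which is not on it, fell under both antibodies (log2 difference -0.687, SE 0.125, edgeR adjusted p = 0.0295). Its difference was -0.51 with mIgG and -0.87 with mAdu, and it was named after its values were seen. Of all 11 markers on the list, Ttr included, 8 had a negative difference and 3 a positive one. At an unadjusted p under 0.05, 4 of the 11 were lower, against 7.54% of all genes. The median of the 11 was -0.182, at -0.0376 with mIgG and -0.581 with mAdu. Kcnj13, a potassium channel of the choroid plexus, was at -0.95 (SE 0.20, edgeR adjusted p = 0.0533), Folr1, a folate receptor, at -0.55 (SE 0.18, edgeR adjusted p = 0.166), and Otx2, a transcription factor of this epithelium, at -0.0018 (SE 0.24). The mean centred log2 level of the 11 markers was -0.116 to 0.103 in mVEGF-C+mIgG mice and -0.650 to -0.174 in mVEGF-C+mAdu mice, against 0.072 to 0.149 in eGFP+mIgG mice and 0.155 to 0.308 in eGFP+mAdu mice. How much choroid plexus came with each dissected sample, and its part in the fall of Ttr, was not tested. With that level, which includes Ttr, as a covariate, 5 genes passed as higher and 1 as lower. Fos (log2 difference 1.24, edgeR adjusted p = 0.00958) and Egr2 (1.95, edgeR adjusted p = 0.00977) remained among them. Ttr did not pass (-1.38, SE 0.32, edgeR adjusted p = 0.254), with nearly the same difference as without the covariate and a wider SE. The level lay lower in most mVEGF-C mice than in any eGFP mouse, so this fit cannot separate it from the vector.

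Hc, which encodes complement component C5, was the other large fall, at a low level. It had 0.570, 0.318 and 0.534 CPM in mVEGF-C+mIgG mice and 0.384, 0.485 and 0.443 CPM in mVEGF-C+mAdu mice, against 1.16, 0.511 and 1.07 CPM in eGFP+mIgG mice and 1.59, 1.18 and 1.42 CPM in eGFP+mAdu mice. Only mouse 2 (eGFP+mIgG) lay within the range of the mVEGF-C mice. The log2 difference was -1.33 (SE 0.22, edgeR adjusted p = 0.0192), at -0.98 with mIgG and -1.67 with mAdu. None of 12 complement genes on the list passed, 10 had a negative difference and the median was -0.116, with arms of opposite sign (0.0576 with mIgG and -0.319 with mAdu).

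Fxyd6, a regulator of the sodium and potassium pump, had 66.4, 61.5 and 62.8 CPM in mVEGF-C+mIgG mice and 66.1, 71.3 and 69.0 CPM in mVEGF-C+mAdu mice, against 80.5, 72.0 and 76.7 CPM in eGFP+mIgG mice and 86.8, 76.1 and 84.1 CPM in eGFP+mAdu mice. The vectors did not overlap, and the log2 difference of -0.26 (SE 0.039, edgeR adjusted p = 0.0116) was -0.27 with mIgG and -0.26 with mAdu. Timp2, Col23a1 and Pappa2, whose products act at or outside the cell surface, also fell under both antibodies. Timp2, an inhibitor of matrix metalloproteinases, had 119.5 ± 5.75 CPM in mVEGF-C mice and 136 ± 5.62 CPM in eGFP mice (mean ± SD, n = 6 each), a log2 difference of -0.18 (SE 0.031, edgeR adjusted p = 0.0192). Col23a1, a transmembrane collagen, had 9.83 ± 1.30 CPM in mVEGF-C mice and 14.3 ± 1.87 CPM in eGFP mice, a log2 difference of -0.54 (SE 0.099, edgeR adjusted p = 0.0295), with no overlap. Pappa2, a protease that cleaves binding proteins of insulin-like growth factor, had 2.12, 1.07 and 2.17 CPM in mVEGF-C+mIgG mice and 2.65, 3.40 and 2.90 CPM in mVEGF-C+mAdu mice, against 3.96, 2.84 and 3.23 CPM in eGFP+mIgG mice and 4.26, 3.94 and 4.46 CPM in eGFP+mAdu mice. Its vectors separated within each antibody and overlapped between them, with a log2 difference of -0.71 (SE 0.14, edgeR adjusted p = 0.0387).

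The remaining named genes that fell under both antibodies had small differences. Carmil3, a regulator of actin capping, had a log2 difference of -0.28 (SE 0.048), Slc6a7, the brain transporter for proline, -0.17 (SE 0.03), and Plppr3, a membrane protein of growing axons, -0.28 (SE 0.05). Ptpn14, a tyrosine phosphatase, had -0.40 (SE 0.075), Med16, a subunit of the Mediator complex, -0.21 (SE 0.039), and Marc2, a molybdenum enzyme of mitochondria, -0.17 (SE 0.032). Ajm1, a protein of apical junctions, had -0.19 (SE 0.036), and Wdr6, a WD repeat protein, -0.25 (SE 0.05). Of these 8 genes, Carmil3, Ptpn14, Med16, Marc2 and Wdr6 separated all 6 mVEGF-C mice from all 6 eGFP mice. Agt, the precursor of angiotensin, and Foxo1, a forkhead transcription factor, passed the averaged contrast but reached an unadjusted p under 0.05 with mIgG alone. Agt had -0.39 (SE 0.074) with mIgG and -0.15 (SE 0.07) with mAdu, and Foxo1 had -0.43 (SE 0.076) with mIgG and -0.11 (SE 0.076) with mAdu. The test of a difference between the antibodies passed after adjustment for none of Srsf10, Arl5b, Agt and Foxo1.

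**Figure D2:**
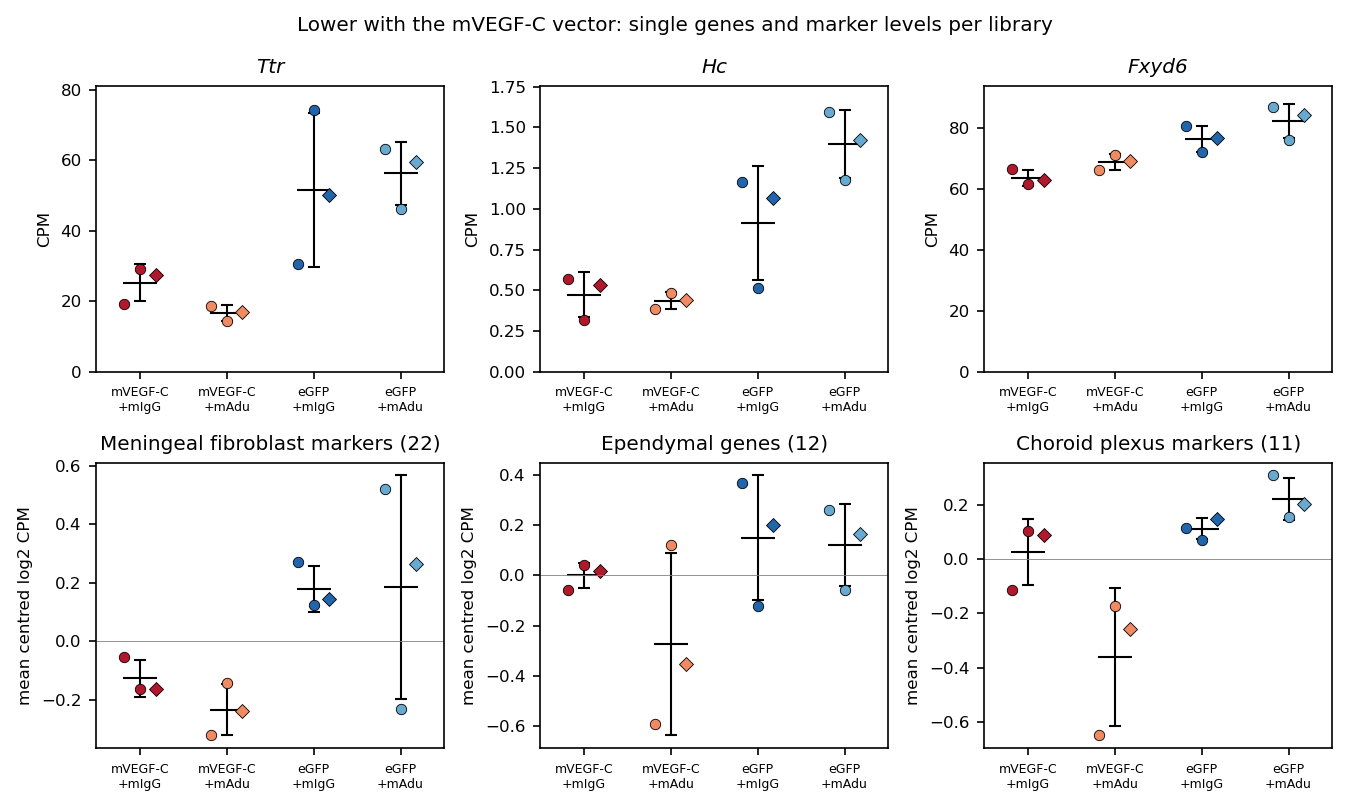
Upper row: levels in CPM of Ttr, Hc and Fxyd6 for each library (points) with group means and SD (n = 3 mice); lower row: mean centred log2 CPM of 3 marker lists. Diamonds mark mice 3, 6, 9 and 12. Ttr is at 14.3 to 29.1 CPM in mVEGF-C mice and at 30.4 to 74.2 CPM in eGFP mice, and mouse 5 (eGFP+mAdu) lies among the mVEGF-C mice for meningeal fibroblast markers.

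Marker lists of cells at the border of the brain had mostly negative differences, without genes that passed. All 22 meningeal and perivascular fibroblast markers had a negative difference and none passed in edgeR's test, with 16 of the 22 at an unadjusted p under 0.05 (7.54% of all genes were lower by that measure) and a median of -0.397, at -0.318 with mIgG and -0.472 with mAdu. Col1a2, a chain of type I collagen, was at -0.55 (SE 0.13, edgeR adjusted p = 0.0755), Aldh1a2, the enzyme that makes retinoic acid, at -0.70 (SE 0.17, edgeR adjusted p = 0.0892), and Ptgds, a prostaglandin D synthase, at -0.50 (SE 0.11, edgeR adjusted p = 0.0755). The level of the list was -0.164 to -0.056 in mVEGF-C+mIgG mice and -0.320 to -0.145 in mVEGF-C+mAdu mice, against 0.124 to 0.269 in eGFP+mIgG mice and -0.232 to 0.519 in eGFP+mAdu mice, where mouse 5 was the low one. Without mice 5 and 6, 11 of the 22 passed as lower, with a median of -0.527, and the counts of all genes were 45 higher and 77 lower. Once the choroid plexus level was a covariate, 6 of the 22 had a positive difference and the median was -0.208. In that fit 3 were lower at an unadjusted p under 0.05, against 3.06% of all genes. The fit cannot separate the choroid plexus level from the vector.

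Ependymal and motile cilium genes gave 12 negative differences of 12 with a median of -0.276, at -0.16 with mIgG and -0.411 with mAdu. None of them passed in edgeR's test and 7 were lower at an unadjusted p under 0.05, against 7.54% of all genes. The levels of the 12 overlapped between vectors, with mice 10 and 12 lowest. Their median was 0.141 once the choroid plexus level was a covariate, a fit that cannot separate that level from the vector. Of 9 markers of border-associated macrophages 4 were measured, all with a negative difference and a median of -0.423, and none passed. Among 20 reactive astrocyte genes 19 had a negative difference and none passed. Of the 20, 7 were lower at an unadjusted p under 0.05, against 7.54% of all genes. The medians of the 20 were -0.0502 with mIgG and -0.328 with mAdu. The 6 lymphatic endothelial markers had 3 positive and 3 negative differences and a median of -0.00878.

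**Figure D3:**
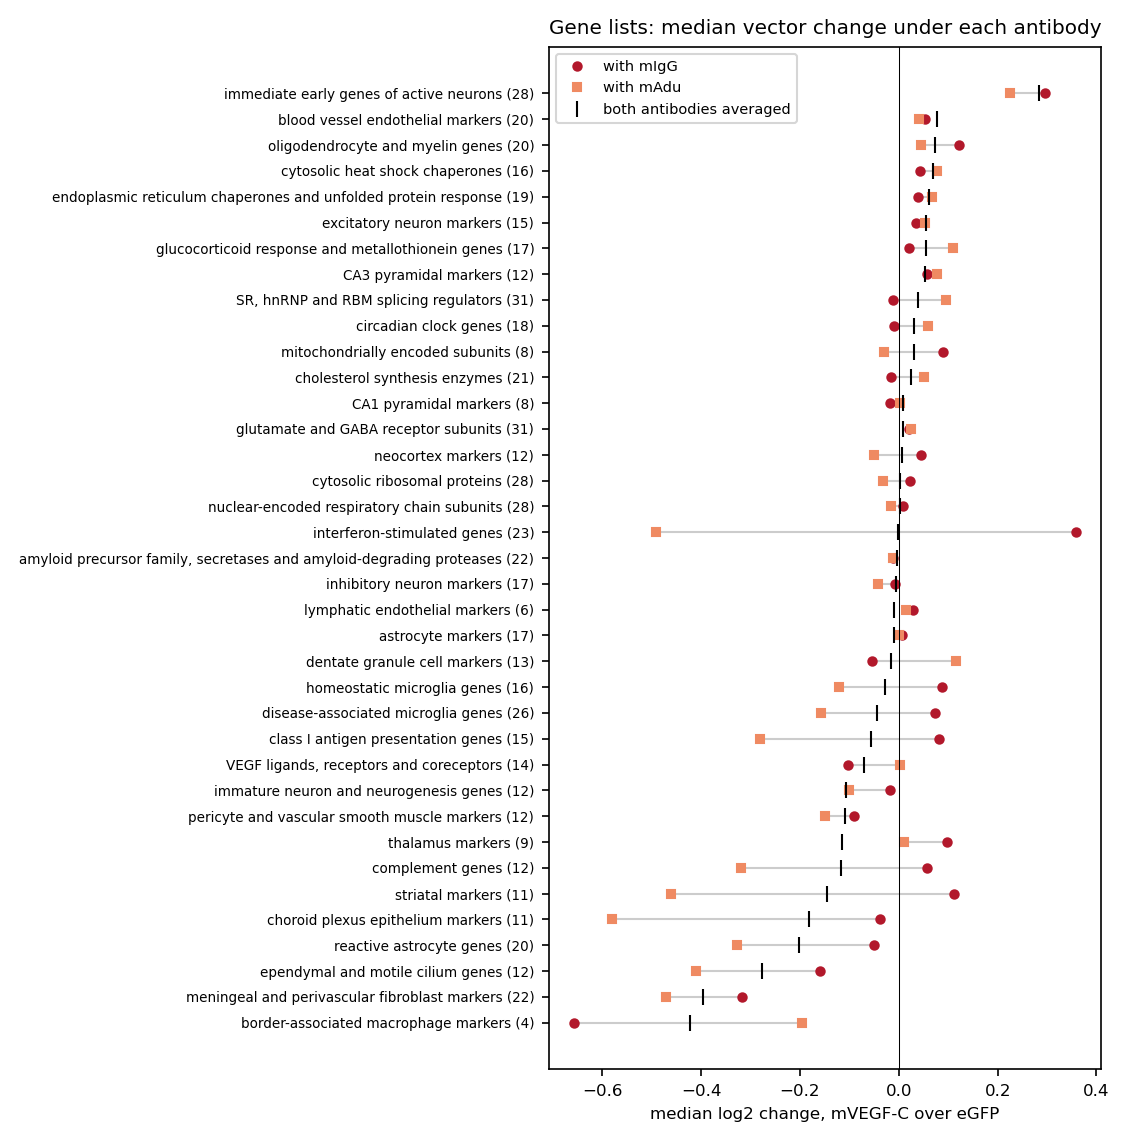
Median log2 difference, mVEGF-C over eGFP, of the measured members of 37 gene lists (number in brackets), with mIgG (circles), with mAdu (squares) and averaged over both (black bars). Immediate early genes lie above 0.2 with either antibody, meningeal fibroblast markers lie below -0.3 with either, and interferon-stimulated genes lie on opposite sides of 0.

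The agreement of the antibody arms was examined across all genes, since the arms share no mouse. With mIgG, 1177 genes (7.91%) had an unadjusted p under 0.05, and with mAdu 2122 genes (14.3%) did. Both conditions with the same sign held for 257 genes (1.73%), 146 higher and 111 lower, and both with opposite signs for 45 genes. This was 21.8% of the genes counted with mIgG and 12.1% of those counted with mAdu. Of the 1177 genes counted with mIgG, 855 (72.6%) had the same sign with mAdu, while 60.5% of all genes had the same sign in both arms. On their own, the arms gave 6 genes (mIgG) and 7 genes (mAdu) past edgeR's adjusted threshold.

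Of the 58 genes that passed the averaged contrast, 57 had the same sign in both arms, which the average favours. Tacr3, the receptor of neurokinin B, was the exception. It was named after its values were seen, at 2.48, 2.11 and 1.83 CPM in mVEGF-C+mIgG mice and 4.69, 4.81 and 5.07 CPM in mVEGF-C+mAdu mice, against 4.21, 5.16 and 4.34 CPM in eGFP+mIgG mice and 4.40, 5.31 and 4.79 CPM in eGFP+mAdu mice. Only the mVEGF-C+mIgG mice were low, and the other 3 groups overlapped. A total of 14 genes missed the rule of the same direction, 7 because of the mIgG arm and 7 because of the mAdu arm. Complete separation of 6 from 6 mice was seen in 16 higher and 10 lower genes of the 58, and in 91 (0.612%) and 59 (0.396%) of all genes.

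**Figure D4:**
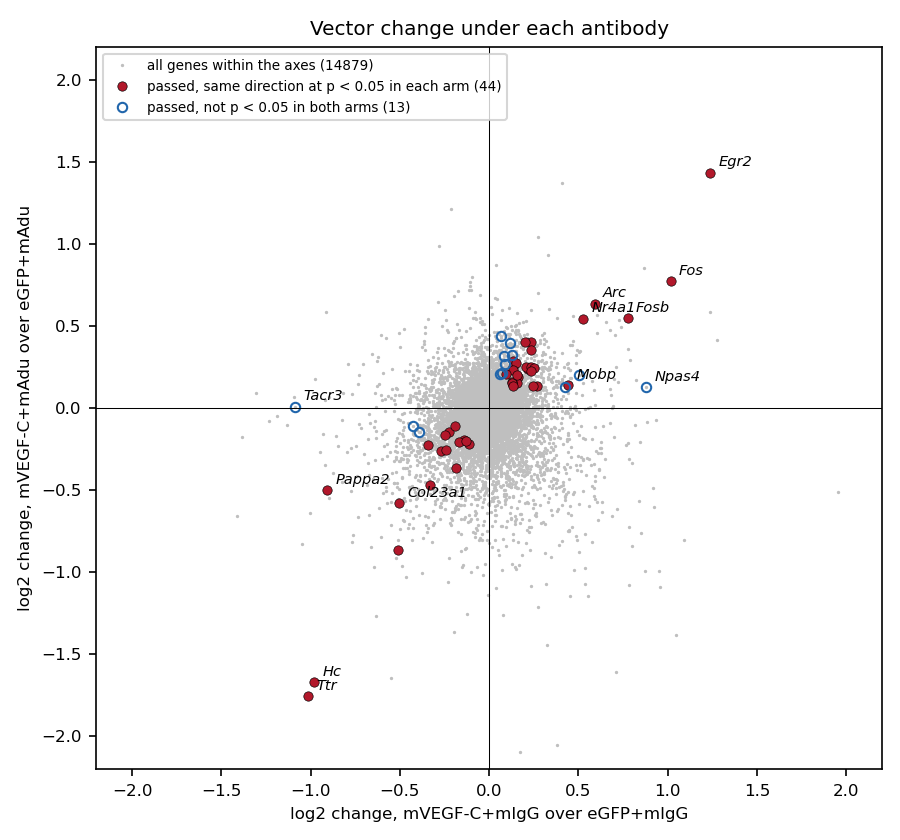
Log2 difference of each gene, mVEGF-C over eGFP, with mIgG (horizontal) and with mAdu (vertical), for the 14879 genes within the axes (grey), the 44 genes that met the rule in both arms (filled circles) and 13 of the 14 that passed without meeting it (open circles). The filled circles lie at the lower left and upper right, as the rule requires, and Tacr3 and Npas4 lie close to the horizontal line at 0 on the mAdu axis.

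A difference between the arms was tested directly as the interaction of vector and antibody. In edgeR's test 2 genes passed (0.0134%), ENSMUSG00000045999 and Ide, and 1015 of the 14881 genes tested had an unadjusted p under 0.05. Of the 58 genes 17 were at an unadjusted p under 0.05 for the interaction. Among the 44 genes 3 were, Ttr (0.0452), Mobp (0.00296) and Arrdc3 (0.0266), and none passed after adjustment. The rule that chose the 44 disfavours genes whose arms differ, so their low count is no test of equal arms. Some lists had medians of opposite sign in the arms. Interferon-stimulated genes had a median of 0.359 with mIgG, where 21 of 23 were positive, and -0.492 with mAdu, where 1 of 23 was positive. Their averaged median was thus -0.00185. Their mean centred log2 level was 0.019, 0.589 and 0.391 in mice 7, 8 and 9 (mVEGF-C+mIgG), against -0.069 to 0.106 in eGFP+mIgG mice. It was -0.435 to -0.372 in mVEGF-C+mAdu mice, against -0.076 to 0.171 in eGFP+mAdu mice. Class I antigen presentation genes had a median of 0.0814 with mIgG and -0.281 with mAdu, and disease-associated microglia genes 0.0734 with mIgG and -0.158 with mAdu. The class I level was -0.072, 0.327 and 0.197 in mice 7, 8 and 9, against 0.057 to 0.069 in eGFP+mIgG mice. The microglia level was -0.097, 0.417 and 0.185 in mice 7, 8 and 9, against -0.001 to 0.211 in eGFP+mIgG mice. With mAdu the levels of the vectors did not overlap in either list. The interaction of these lists was not tested as a set.

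Base composition moved with the vector. The GC content of the longest transcript had a median of 42.2% for the 27 higher genes and 55.1% for the 17 lower genes, against 49.7% for all genes with a value. Below the median of all genes lay 21 of the 27, and above it 13 of the 17. Over all genes the 2958 genes of lowest GC content (below 43.8%) had a median log2 difference of 0.0482 and the 2958 of highest GC content (above 55.5%) of -0.0561. The median level of the high-GC genes minus that of the low-GC genes, on the log2 scale relative to the mean library, stood at 0.0489, -0.0569 and -0.0531 in mVEGF-C+mIgG libraries and at -0.161, -0.0224 and -0.07 in mVEGF-C+mAdu libraries. It stood at 0.0897, 0.0782 and 0.0396 in eGFP+mIgG libraries and at 0.0929, 0.0174 and 0.0017 in eGFP+mAdu libraries, so that mouse 7 alone of the mVEGF-C mice was above 0.

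When trends of each library with GC content and transcript length were entered as offsets, a choice made after seeing the data, 15 genes passed as higher and 13 as lower. Of the 58 genes, 24 still passed, and of the 44, 17 still met the rule. Of the 28 immediate early genes 7 passed, with a median of 0.313, and among the 6 that met the rule, Homer1 (36.9% GC) was below the median GC of all genes while Fos (51.9%), Egr2 (51.4%), Arc (59.0%), Fosb (56.0%) and Nr4a1 (57.0%) were above it. Homer1 was the 1 of the 8 that no longer passed (log2 difference 0.18, edgeR adjusted p = 0.0976). Other named genes that no longer passed with these offsets were Arrdc3, Washc4, Fam208a, Ldah, Srsf10, Coq10b, Hspa5 and Cyp51 among those higher and Carmil3, Slc6a7, Plppr3, Ptpn14, Agt, Med16, Ajm1, Wdr6 and Pappa2 among those lower. Among these, the log2 differences of Fam208a, at 0.091, and Ajm1, at -0.11, moved by over 1.5 times. Of the lists near 0, splicing regulators had a median of -0.00778 with these offsets and 0.0391 without them.

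**Figure D5:**
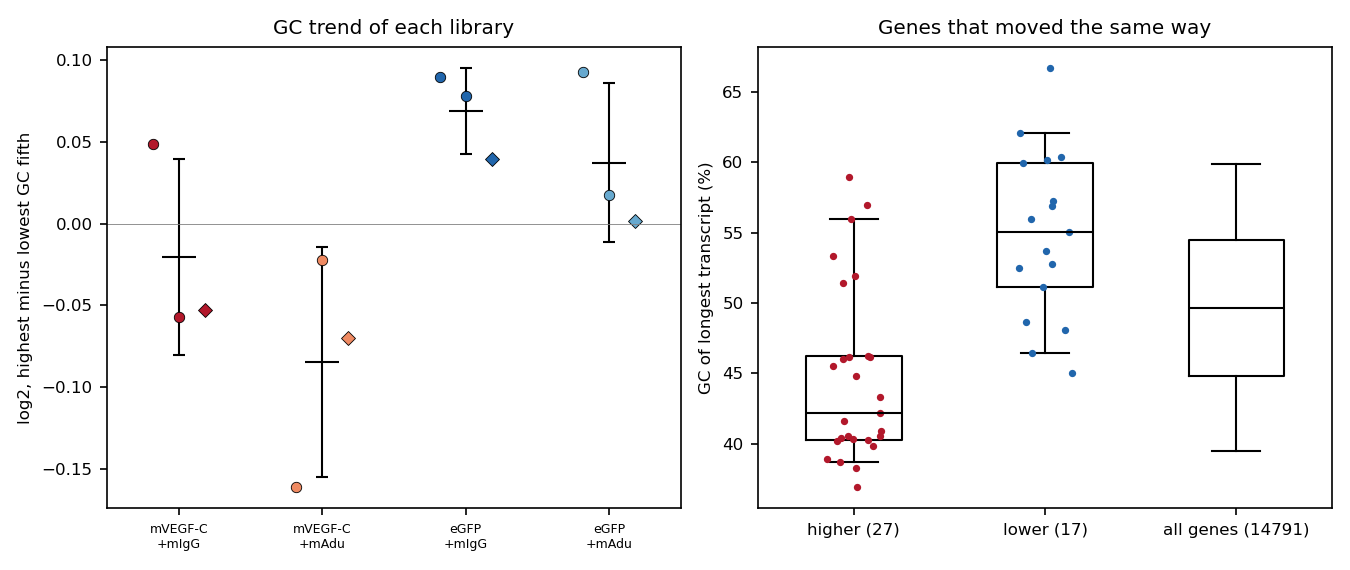
Left: median log2 level of the 2958 genes of highest minus the 2958 of lowest GC content for each library (points), relative to the mean library, with group means and SD (n = 3); right: GC content in percent of the longest transcript for the 27 higher genes, the 17 lower genes and all genes with a value (boxes give quartiles and whiskers the 5th and 95th percentiles). All 6 eGFP libraries are above 0 on the left, and the medians on the right are 42.2, 55.1 and 49.7%.

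The threshold cut through a continuous range. Just inside it lay Lhfpl4 (log2 difference -0.15, edgeR adjusted p = 0.0445) and Amd1 (0.14, edgeR adjusted p = 0.0482), and just outside it Pak6 (-0.21, edgeR adjusted p = 0.0513) and Unc5d (-0.19, edgeR adjusted p = 0.0518). App, whose level in mice 5 and 6 is given above, had a log2 difference of 0.25 (SE 0.20, edgeR adjusted p = 0.583). The counts of genes rest on few libraries: leaving out mouse 9 left 2 genes higher and 2 lower, and leaving out mouse 7 gave 119 higher and 134 lower. In each of the 12 fits that left out 1 mouse, Fos, Rngtt and Ttr passed.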

How the data were processed

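Raw gene counts of the 12 libraries, 1 per mouse, were deposited in 1 table, unscaled by the authors. The submitters' processing notes name FastQC, Trim Galore, STAR, Subread, featureCounts, edgeR and the build mm10. Versions, annotation and strandedness of counting were not given, so overlapping genes are uncertain. Per the labels' protocols, RNA was amplified linearly before library preparation. Totals ran from 23213612 to 29295266 reads. No batch, litter or date was used, as the labels give none.

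The counts were fitted with edgeR 4.0.16 (R 4.3.3): TMM scaling, filterByExpr, which removed 0 genes, and 1 mean per group over 12 libraries. Quasi-likelihood F tests were two-sided, with Benjamini-Hochberg adjustment over 14881 genes and a threshold of 0.05. Every adjusted p comes from this test unless another is named. The averaged contrast is the mean of both mVEGF-C groups minus the mean of both eGFP groups. CPM is relative to the TMM-scaled total, and the SE is the absolute log2 change divided by the square root of F. List levels are means of log2 CPM (prior count 2) centred per gene. Symbols and transcripts came from GENCODE M21 on GRCm38, which left 84 identifiers without a symbol. Tests were tried on simulated counts.

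Named genes were the 15 with the smallest p in each direction among those that passed with the same sign in both arms, up to 4 passing members of each of 37 lists, and Vegfc, Flt4 and App. Genes with predicted or Rik names and those without a symbol (3 of the 58) were counted and not named, except where stated. Members and lists were chosen with earlier results of these data known. Alternatives were DESeq2 1.42.0, limma 3.58.1 voom, other scalings, filters, designs and covariates, and libraries left out.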

Additional observations from a re-analysis of the deposited data

Results flagged for a closer look

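The vector difference depended on the antibody for ENSMUSG00000045999 by edgeR's interaction test. Its log2 interaction was 6.731 (SE 0.91, adjusted p = 0.0266). It had 170.0, 1037 and 132 CPM in mVEGF-C+mIgG mice and 108, 149.9 and 113 CPM in mVEGF-C+mAdu mice, against 91440, 91830 and 24410 CPM in eGFP+mIgG mice and 154, 236 and 152 CPM in eGFP+mAdu mice. Only the eGFP+mIgG mice were high, and the gene is 1 of the 58 that passed the averaged contrast (log2 difference -3.91, SE 0.47, edgeR adjusted p = 0.00319).

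Ide, the insulin-degrading enzyme, which also cleaves amyloid beta, was the other gene, with a log2 interaction of -0.3637 (SE 0.054, edgeR adjusted p = 0.0405). It had 71.1, 76.7 and 75.8 CPM in mVEGF-C+mIgG mice and 79.6, 80.5 and 83.1 CPM in mVEGF-C+mAdu mice, against 70.5, 72.7 and 70.2 CPM in eGFP+mIgG mice and 98.8, 99.2 and 100.4 CPM in eGFP+mAdu mice. The eGFP+mAdu mice stood above the other 9. Both genes were named after their values were seen.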

How the results depend on the processing

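The 4 counts of the vector contrast are given as all higher, all lower, same direction higher and same direction lower (37, 21, 27 and 17 in the results), followed by the genes shared by both arms (257) and the interaction (2). They were 85, 66, 52, 38, 159 and 8 with the DESeq2 Wald test, and 886, 903, 411, 356, 772 and 220 with limma-voom and quality weights. They were 0, 0, 0, 0, 39 and 0 without mice 3, 6, 9 and 12, a fit of 8 libraries in which 842 genes had an unadjusted p under 0.05. With choroid plexus level as covariate they were 5, 1, 5, 1, 157 and 0, and with GC and length offsets 15, 13, 12, 9, 152 and 2. Without mice 5 and 6, lower genes numbered 77, those lower in the same direction 55 and the interaction 0. The causes of these shifts were not tested. Other scaling, filters and additive terms left the counts within 1.5 times of the results.

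Leaving out 1 mouse gave 2 to 119 higher, 2 to 134 lower, 2 to 94 and 1 to 97 in the same direction, 139 to 420 shared by both arms and 0 to 36 for the interaction. Higher and lower genes numbered 11 and 6 without mouse 1, 4 and 5 without mouse 3, 10 and 4 without mouse 4, 3 and 2 without mouse 6, 2 and 2 without mouse 9, 26 and 9 without mouse 10, 14 and 6 without mouse 11, and 6 and 3 without mouse 12. They numbered 85 and 103 without mouse 5 and 119 and 134 without mouse 7. No named gene that passed changed sign. App, which did not pass, had a log2 difference of -0.074 without mice 5 and 6 and 0.25 with all mice. Of 791 checks of single genes, 509 kept their side of the threshold, 281 no longer passed, and Vegfc newly passed as lower with limma-voom (-0.37, adjusted p = 0.0204). No paired analysis was possible because the labels number the mice 1 to 12 and no number is shared between groups.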
